A study of Mus musculus with 16 samples.

Results

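Brown adipose tissue (BAT) of obese wild-type (WT) mice was compared between XY males and XX females over autosomal genes, in 4 male and 4 female mice, which were 8 of the 16 mice of the series. The members were all 11666 autosomal genes, of 12039 genes in all, that had a mean rescaled abundance of at least 1 TPM over these 8 libraries. TPM is a measure of abundance in which reads are divided by transcript length and each library is set to the same sum. The libraries were further rescaled here by median-of-ratios factors, and the values of a gene's transcripts were summed. WT mice were C57BL6/J animals that carried Gdf15 fl/fl alleles without the Cre transgene. They were fed a high-fat diet with 60% of kcal from fat for 12 weeks and were 18 weeks old. The other 8 mice (KO, 4 male and 4 female) had the same diet and age and carried Gdf15 fl/fl together with Ucp1-Cre, which deletes the gene in cells that use the *Ucp1* promoter, the thermogenic adipocytes. They are used below only as a second set of male and female mice.

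BAT burns fatty acids and glucose to make heat. UCP1 in the inner mitochondrial membrane lets protons flow back without ATP synthesis, and noradrenaline switches the process on through beta-adrenergic receptors and cAMP. Sex hormones reach adipocytes through the estrogen receptor ESR1 and the androgen receptor, and the sexes of rodents are known to differ in BAT activity. BAT also has a circadian clock, in which the activators BMAL1 (gene *Arntl*) and CLOCK drive genes of repressors (*Per*, *Cry*, *Nr1d1*) and of the output factor *Dbp*, so that the level of a clock gene depends on the hour of dissection.

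The labels of sex held in every library. *Xist*, the X-linked RNA that silences an X chromosome, was between 25.1 and 29.6 TPM in the females and at most 0.00468 TPM in the males. *Eif2s3y*, a translation factor gene of chromosome Y, was at 23.3 to 33.2 TPM in the males and at most 0.071 TPM in the females. *Ddx3y*, *Kdm5d* and *Uty* separated the sexes in the same way. Brown adipocyte markers were high in both sexes, with *Ucp1* between 2840 and 4380 TPM. Between 58140 and 65365 transcripts per library were above 0, and mitochondrial transcripts took 34.5 to 59.8% of the TPM. TPM carries no read counts, so no counting error can be given. Female replicate 4 stood apart from the rest: 17.7% of its TPM fell on transcripts that matched no gene, 16.5% on a single one, and a further 7.09% on the non-coding *Mir6236*, while 0.33 to 0.47% matched no gene in the other libraries of the series. The name prefixes of the libraries also differed, and their meaning is not given in the sources used here. The males had the prefixes 5, 5, 9 and 9 and the females 10, 8b, 8b and 8b, so in WT mice the prefix and sex cannot be told apart, and no value within a prefix can be given.

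Few autosomal genes separated the sexes. Of the 11666 autosomal genes, 3 (0.0257%) passed an adjusted p of 0.05 in limma, with *Dbp* and *Grb14* (0.0171%) higher in males and the microRNA gene *Mir719* (0.00857%) higher in females. *Mir719* passed the minimum of 1 TPM only through its female values. The 3 calls rested on an adjustment over all 12039 genes, which included *Xist*, *Eif2s3x* and 4 genes of chromosome Y. With the adjustment over autosomal genes alone the 3 had adjusted p-values in limma of 0.0877, 0.0977 and 0.0977, and 0 genes passed, with 678 at an unadjusted p under 0.05 in limma. In the fit over all 12039 genes 676 autosomal genes (5.79%) had an unadjusted p under 0.05, 336 higher in males (2.88%) and 340 in females (2.91%), where 583 would be met with no difference at all. In 445 genes (3.81%) the values of the 4 males and the 4 females did not overlap, 208 higher in males (1.78%) and 237 in females (2.03%). Without rescaling, the genes at an unadjusted p under 0.05 numbered 251 higher in males and 140 in females, and the median log2 difference moved from -0.003 to 0.05. The median absolute log2 difference over the autosomal genes was 0.117, and the median SD between mice of one sex was 0.181 in males and 0.201 in females, on the log2 scale. The number of calls ranged from 0 to 5 when 1 library was left out. It was 0 without female replicate 2 or female replicate 3, with 865 and 577 genes at an unadjusted p under 0.05 in limma, and 5 without female replicate 1, among them *Dbp* and *Grb14*. Without female replicate 4, the library that stood apart, 3 genes passed, all short non-coding RNAs higher in females and none of them *Dbp*, *Grb14* or *Mir719* (0 genes shared).

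**Figure D1:**
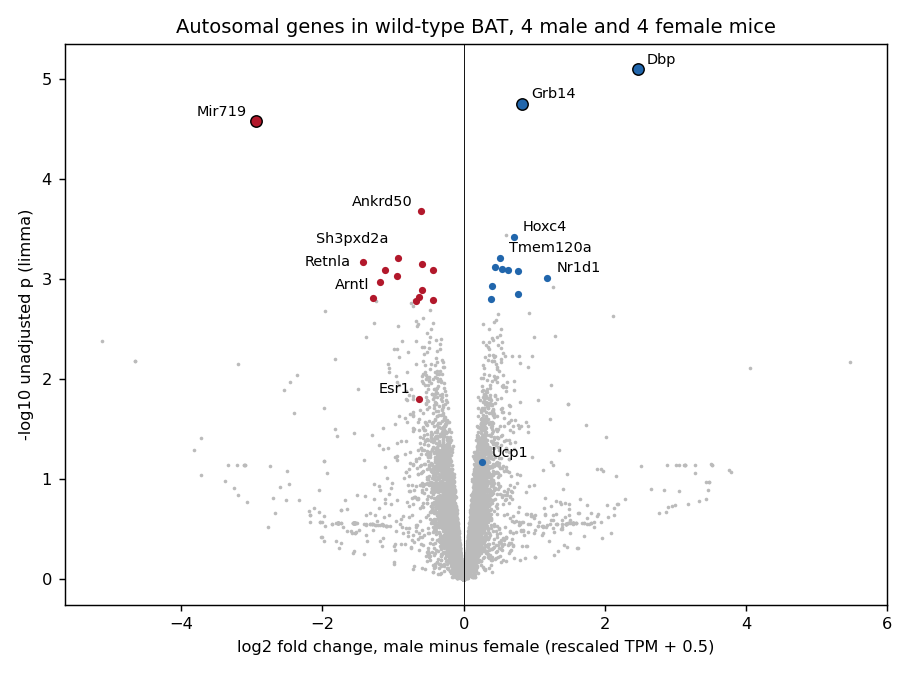
Each point is 1 of 11666 autosomal genes in WT BAT. The x axis is the log2 fold change, male minus female, on log2(rescaled TPM + 0.5), and the y axis is -log10 of the unadjusted p from limma. Coloured points are the genes named by rank with *Mir719*, *Esr1*, *Ucp1* and *Cry1*, in blue where higher in males and in red where higher in females, and outlined points are the 3 genes that passed the adjusted threshold.

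The promoters of genes with the smallest p in each direction are shown because they can be read for the sites of sex steroid receptors and of clock factors. They are the 250 bases before the RefSeq start (build GRCm38.p6, while the authors' notes name GRCm39), 5′ to 3′ on the strand of the gene. *Sh3pxd2a* belonged to these genes by rank and is named only. *Nfil3* and *Tef* were added after values were seen, as clock genes with a match. The clock genes *Nr1d1* and *Arntl* held no match and are not printed. Capitals mark a match to one of 5 motifs searched on both strands: the estrogen response element (GGTCA and TGACC with 3 bases between), the androgen or glucocorticoid response element (AGAACA and TGTTC with NNN between), the E-box CACGTG, the D-box TTANGTAA and the REV-ERB response element TAGGTCA. The last 3 motifs were chosen after values were seen. TAGGTCA is also known as the ROR element, so a match does not single out REV-ERB as the factor.
Dbp (chr7:45704997-45705246, plus strand): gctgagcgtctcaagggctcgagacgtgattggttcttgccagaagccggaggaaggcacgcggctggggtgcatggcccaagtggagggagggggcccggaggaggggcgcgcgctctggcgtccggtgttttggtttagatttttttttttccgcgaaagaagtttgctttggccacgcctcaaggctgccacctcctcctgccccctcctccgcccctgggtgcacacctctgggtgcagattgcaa
Grb14 (chr2:65022767-65023016, minus strand): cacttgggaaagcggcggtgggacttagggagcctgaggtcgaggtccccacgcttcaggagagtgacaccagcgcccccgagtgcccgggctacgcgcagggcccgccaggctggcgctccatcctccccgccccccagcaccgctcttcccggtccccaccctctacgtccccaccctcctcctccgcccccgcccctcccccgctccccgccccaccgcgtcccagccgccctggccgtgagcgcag
Hoxc4 (chr15:103034145-103034394, plus strand): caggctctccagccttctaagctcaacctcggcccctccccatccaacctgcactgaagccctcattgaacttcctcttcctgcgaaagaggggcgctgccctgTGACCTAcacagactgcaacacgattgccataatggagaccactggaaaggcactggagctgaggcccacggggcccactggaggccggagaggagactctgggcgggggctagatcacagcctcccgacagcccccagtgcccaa
Ankrd50 (chr3:38484851-38485100, minus strand): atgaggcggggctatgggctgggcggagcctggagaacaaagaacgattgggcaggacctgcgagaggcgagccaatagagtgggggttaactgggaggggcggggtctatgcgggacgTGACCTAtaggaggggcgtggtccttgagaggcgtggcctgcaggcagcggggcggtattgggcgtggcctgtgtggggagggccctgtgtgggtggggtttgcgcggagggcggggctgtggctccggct
Retnla (chr16:48842359-48842608, plus strand): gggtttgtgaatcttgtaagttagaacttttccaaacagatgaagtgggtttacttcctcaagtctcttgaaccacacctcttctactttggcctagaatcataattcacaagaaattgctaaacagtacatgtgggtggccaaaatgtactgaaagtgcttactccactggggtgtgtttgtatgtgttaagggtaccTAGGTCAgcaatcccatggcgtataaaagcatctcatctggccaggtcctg
Nfil3 (chr13:52981040-52981289, minus strand): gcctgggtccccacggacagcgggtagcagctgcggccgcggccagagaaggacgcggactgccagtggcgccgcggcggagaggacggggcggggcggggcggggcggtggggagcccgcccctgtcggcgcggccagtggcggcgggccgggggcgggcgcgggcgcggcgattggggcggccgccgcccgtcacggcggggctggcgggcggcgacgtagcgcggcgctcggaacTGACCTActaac
Tef (chr15:81802423-81802672, plus strand): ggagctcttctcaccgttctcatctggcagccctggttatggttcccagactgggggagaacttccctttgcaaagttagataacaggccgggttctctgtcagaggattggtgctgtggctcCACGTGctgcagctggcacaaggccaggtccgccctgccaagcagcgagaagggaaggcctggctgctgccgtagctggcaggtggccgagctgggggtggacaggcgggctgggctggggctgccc

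*Hoxc4*, *Ankrd50* and *Nfil3* held the REV-ERB response element on the opposite strand, so the capitals read TGACCTA, and *Retnla* held it on the strand shown. The match began 146 bases before the start in *Hoxc4*, 131 in *Ankrd50*, 51 in *Retnla* and 12 in *Nfil3*. *Tef* held an E-box 127 bases before its start, and *Dbp* and *Grb14* held none of the 5 motifs in this window. Among the 24 genes ranked below, 21 had a promoter sequence, of which 4 held the REV-ERB response element, 3 the E-box (*Ass1*, *Snx18* and *Ppp1r3d*) and 0 either steroid element. Clock genes tested numbered 22, and 17 had a promoter sequence. Of these, 5 held the E-box, 1 the D-box, 1 the REV-ERB response element and 0 either steroid element. Over all 27025 genes with a sequence, 2.55% held the REV-ERB response element, 6.86% the E-box and 2.44% the D-box. The estrogen element was held by 0.0666% and the androgen element by 0.0333%. A match of letters does not show that a factor binds there, and these shares are a description with no test.

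*Mir719* is the third called gene, and its mature microRNA is shown with the seed (bases 2 to 8) in capitals, since the seed would set its targets.
mmu-miR-719 (chr14:60228873-60228894, minus strand): aUCUCGGCuacagaaaaauguu

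*Dbp*, a PAR bZIP transcription factor that follows the clock, had the smallest p of all autosomal genes (ENSMUSG00000059824, chromosome 7). It was at 15.6, 13.4, 29.5 and 29.4 TPM in the 4 males and at 3.64, 2.91, 3.71 and 3.13 TPM in the 4 females. Every male was above every female, and males 3 and 4 were above males 1 and 2. The mean was 22 ± 8.69 in males and 3.35 ± 0.391 in females (SD, n = 4 each), a log2 fold change of 2.47 (SE 0.26, limma adjusted p = 0.0161) or 5.52-fold. The call held in 5 of the 8 fits without 1 library. It was lost without female replicate 2, 3 or 4, with adjusted p-values in limma of 0.0711, 0.0836 and 0.0632, while the difference stayed at 2.41 to 2.51. In KO mice the values of the sexes overlapped, and the difference was 1.48 (adjusted p = 0.192 in limma).

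Other clock genes lay on both sides. Of the 23 clock genes listed, 22 were tested, 1 passed the adjusted threshold and 12 had an unadjusted p under 0.05, beside 5.79% of all autosomal genes. *Nr1d1*, the repressor REV-ERB alpha, was at 72.3, 53.9, 78.2 and 72.5 TPM in males and at 49.9, 25.1, 28.1 and 22.5 TPM in females. *Arntl*, which encodes the activator BMAL1, was at 3.21, 3.96, 1.74 and 1.61 TPM in males and at 5.46, 7.26, 5.86 and 6.65 TPM in females. *Nfil3*, which represses the promoters that DBP and TEF activate, was at 6.72, 7.96, 8.67 and 6.22 TPM in males and at 16.3, 11.6, 11.6 and 20.2 TPM in females. The sexes did not overlap for any of these 3 genes, with *Nr1d1* high in males and *Arntl* and *Nfil3* high in females. Their log2 differences were 1.19 (SE 0.24), -1.19 (SE 0.25) and -0.94 (SE 0.19), with adjusted p-values in limma of 0.449, 0.476 and 0.449.

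The PAR bZIP factor *Tef*, *Nr1d2* (REV-ERB beta), the repressors *Cry2* and *Per3*, and *Bhlhe41* were also higher in males, with log2 differences between 0.42 and 0.69. *Cry1* and *Clock* were higher in females, with differences of -0.67 and -0.30. The light- and hormone-induced repressors *Per1* (0.02) and *Per2* (0.39) varied more within a sex than between the sexes. *Per1* ranged from 4.68 to 18.1 TPM in males and from 3.80 to 27.1 TPM in females, with the highest values in male replicate 4 and female replicate 4. *Npas2*, a partner of BMAL1, was under the minimum for testing, at 0.0255 to 0.266 TPM in males and 0.378 to 0.70 TPM in females.

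Levels of *Dbp* differed between libraries of one sex and genotype. In KO mice of each sex, libraries with prefix 10 or 8b lay below those with prefix 5 or 9. WT males held only prefixes 5 and 9, and WT females only 10 and 8b. The order of prefixes 5 and 9 differed between WT males and KO females. In a scaling over all 16 libraries, the 2 WT males with prefix 5 had *Dbp* at 16.4 and 14.1 TPM and those with prefix 9 at 31 and 30.9 TPM. Among KO females, *Dbp* was at 1.78 TPM with prefix 10, 16.7 with prefix 5, 3.87 with prefix 8b and 6.33 with prefix 9. KO males had 6.33 TPM with prefix 10 and 12.7, 37.7 and 19.5 TPM with prefix 9. Since no prefix holds WT mice of both sexes, a fit with the prefix as a covariate over all 16 libraries can link the prefixes of WT males to those of WT females only through the KO libraries, often 1 per prefix and sex. In that fit the sex difference in WT mice was 0.89 for *Dbp* (unadjusted p = 0.179 in limma), -0.35 for *Arntl* (0.345), -0.40 for *Nfil3* (0.328) and -0.45 for *Nr1d1* (0.352), the last with its sign turned. Of the 12 clock genes, 10 kept their sign in that fit and 0 had an unadjusted p under 0.05 in limma, beside 6.48% of all autosomal genes. In KO mice 11 of the 12 had the same sign as in WT mice, 4 with an unadjusted p under 0.05 in limma, beside 29.5% of all autosomal genes. The hour of dissection is not given in the sources used here, and its part in these values was not tested.

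**Figure D2:**
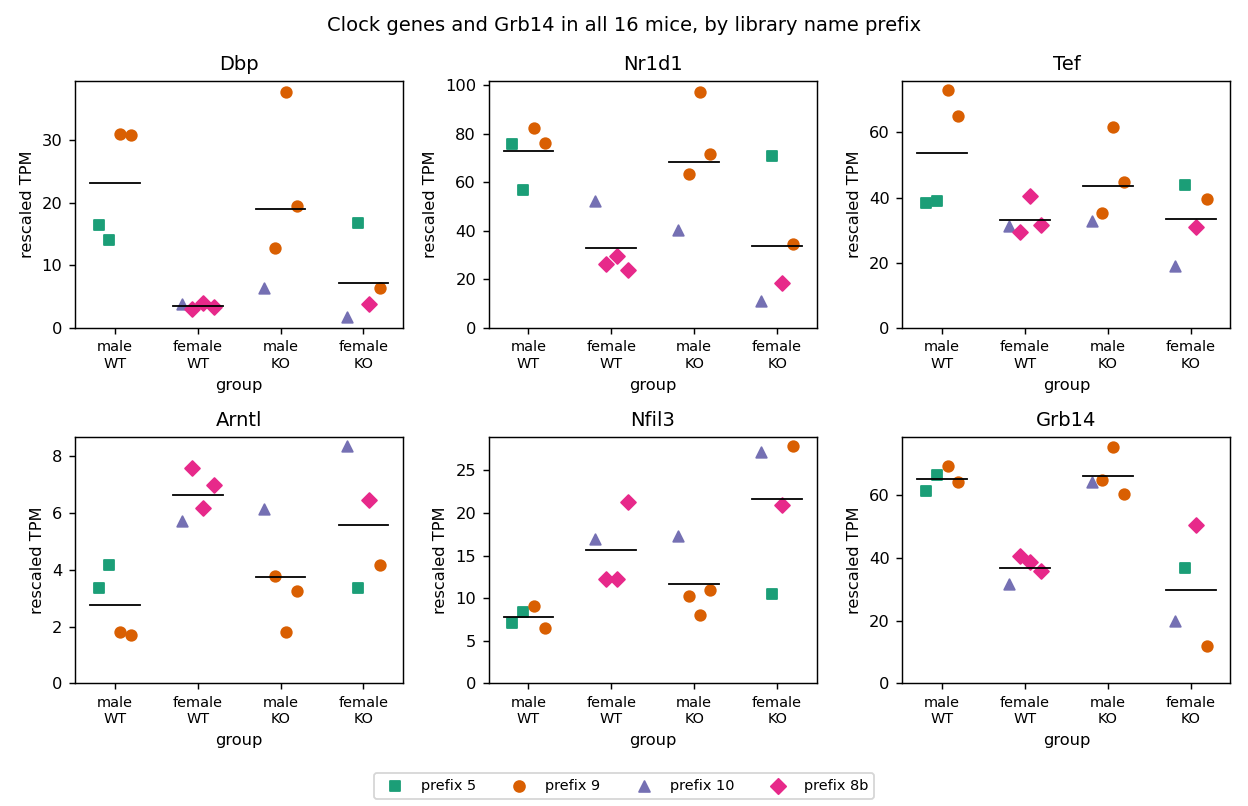
Rescaled TPM of 5 clock genes and *Grb14* in all 16 mice, scaled together. Each point is 1 mouse, its shape and colour give the prefix of the library name, and the line is the group mean. *Dbp* lay at 3.04 to 3.89 TPM in WT females, which had the lowest group mean, while the lowest single value was 1.78 TPM in a KO female, and *Grb14* in WT males lay between 61.2 and 69.3 TPM with either prefix.

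*Grb14* encodes an adaptor that binds the insulin receptor and inhibits it (ENSMUSG00000026888, chromosome 2). It was at 58.4, 63.1, 66.0 and 61.0 TPM in males and at 30.1, 38.9, 36.7 and 34.1 TPM in females. The sexes did not overlap and the mice of a sex lay close together, with means of 62.1 ± 3.19 and 34.9 ± 3.80 TPM (SD, n = 4 each). The log2 difference was 0.83 (SE 0.096, limma adjusted p = 0.0303), or 1.77-fold. In KO mice it was 1.34 (adjusted p = 0.0777 in limma), again without overlap. With the prefix as a covariate the WT difference was 1.4 (unadjusted p = 0.00454, adjusted p = 0.599 in limma). In the fit of all 16 libraries without the prefix it was 0.83 (adjusted p = 0.594 in limma), so neither fit called the gene. The adjusted call in WT mice held in 1 of the 8 fits that each left out 1 library (without female replicate 1), the adjusted p in limma ranging from 0.0494 to 0.15. Beside it, *Irs1*, the insulin receptor substrate, was at 1.14, 1.18, 1.08 and 1.51 TPM in males and at 2.26, 2.12, 1.96 and 2.89 TPM in females, without overlap, a difference of -0.70 (SE 0.15, unadjusted p = 0.00162, adjusted p = 0.506 in limma).

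*Mir719* (ENSMUSG00000076270, chromosome 14) is annotated as a hairpin of 110 bases inside the gene *Gm49336*, and the mRNA libraries were not made for small RNA. It was at 0.75 TPM in male replicate 1 and listed at 0 in the other 3 males, and at 3.02, 6.86, 3.92 and 4.15 TPM in the females. The log2 difference was -2.93 (SE 0.36, limma adjusted p = 0.0394). With means of 0.188 TPM in males and 4.49 TPM in females, it passed the minimum of 1 TPM only through the females. A difference between the sexes was thus part of its entry into the fit. The gene around it, *Gm49336*, was at 3.13 to 4.84 TPM in males and 3.07 to 4.53 TPM in females, a difference of 0.00. In KO mice *Mir719* was at 0.33, 12.3, 3.90 and 0 TPM in males and 0, 6.04, 1.03 and 7.68 TPM in females, a difference of -0.20. It was called in 1 of the 8 fits without 1 library (without male replicate 1) and had adjusted p-values in limma of up to 0.215 in the others.

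By rank, 12 genes higher in males and 12 higher in females are named, all without overlap between the sexes. Beside *Dbp* and *Grb14* none of them passed the adjusted threshold, and the highest adjusted p in limma was 0.506, so the members below are described by their values. *Hoxc4*, a homeobox transcription factor gene of the HoxC cluster, was at 5.42, 4.55, 5.74 and 4.42 TPM in males and 2.30, 2.97, 3.18 and 3.07 TPM in females, a log2 difference of 0.71 (SE 0.13). In KO mice *Hoxc4* was called, at 0.89 (adjusted p = 0.00775 in limma). *Synj2*, a phosphoinositide phosphatase, was at 5.38 to 6.68 TPM in males and 3.14 to 4.33 TPM in females, at 0.63 in WT and 1.13 in KO mice (adjusted p = 0.00739 in limma for KO). *Ezh1*, a histone H3 lysine methyltransferase, differed by 0.40 in WT and by 0.44 in KO mice (adjusted p = 0.0267 in limma for KO). These 3 genes had the same direction and no overlap in both genotypes.

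Metabolic and other genes made up the rest of the male side. *Map1lc3a*, which encodes an LC3 protein of autophagosomes, was at 271, 319, 274 and 303 TPM in males and 218, 208, 225 and 199 TPM in females, a difference of 0.45 (SE 0.089). *Tmem120a*, a nuclear envelope protein needed for normal adipocytes, differed by 0.52 (SE 0.099), *Gstt1*, a glutathione transferase, by 0.55 (SE 0.11) and *Ass1*, an enzyme of arginine synthesis, by 0.77 (SE 0.15). *Haus8* of the mitotic spindle and *Grtp1* differed by 0.77 and 0.38. *Neat1*, the long non-coding RNA of paraspeckles, was named after its values were seen: it was at 392, 446, 450 and 351 TPM in males and 268, 259, 294 and 255 TPM in females (0.60), but lower in males in KO mice (-0.44, adjusted p = 0.127 in limma).

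Among protein-coding genes higher in females, *Ankrd50*, whose product sorts cargo from endosomes, had the smallest p. It was at 7.33, 7.61, 7.17 and 7.2 TPM in males and 11.4, 10.2, 10.6 and 13.5 TPM in females, a log2 difference of -0.60 (SE 0.097, adjusted p = 0.229 in limma). *Sh3pxd2a*, the podosome scaffold TKS5, was at 59.1, 48.6, 37.6 and 39.4 TPM in males and 96.5, 67.6, 87.0 and 102 TPM in females (-0.93, SE 0.18). *Retnla*, a secreted protein of alternatively activated macrophages and adipose tissue, was at 3.54, 3.72, 3.89 and 5.21 TPM in males and 8.59, 22, 9.57 and 10.3 TPM in females (-1.43, SE 0.28). The male values lay close together for *Ankrd50* and *Retnla*, and the highest female value of *Retnla* was that of replicate 2. *Retnla* did not show the difference in KO mice (-0.06, adjusted p = 0.815 in limma).

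*Dapk1*, a death-associated kinase, was at 3.07, 3.41, 1.48 and 1.83 TPM in males and 5.86, 5.38, 4.95 and 6.37 TPM in females (-1.11, SE 0.22), and it was called in KO mice at -1.19 (adjusted p = 0.0424 in limma). *Fgf11*, an intracellular member of the FGF family, differed by -0.59 in WT and was called in KO mice at -0.40 (adjusted p = 0.0474 in limma). *Snx18*, *Ppp1r3d*, a glycogen-targeting phosphatase subunit, *Eci3*, an isomerase of fatty acid oxidation, and *Myo5b*, a vesicle motor, differed by -0.44, -0.63, -0.43 and -0.59. *Myo5b* was the only one of the 24 genes with the opposite sign in KO mice (0.58). Of the 24 genes, 5 were called in KO mice, beside 4.47% of all autosomal genes there, and 10 did not overlap in the same direction, where 9.61% of all autosomal genes did so with males higher and 8.54% with females higher.

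**Figure D3:**
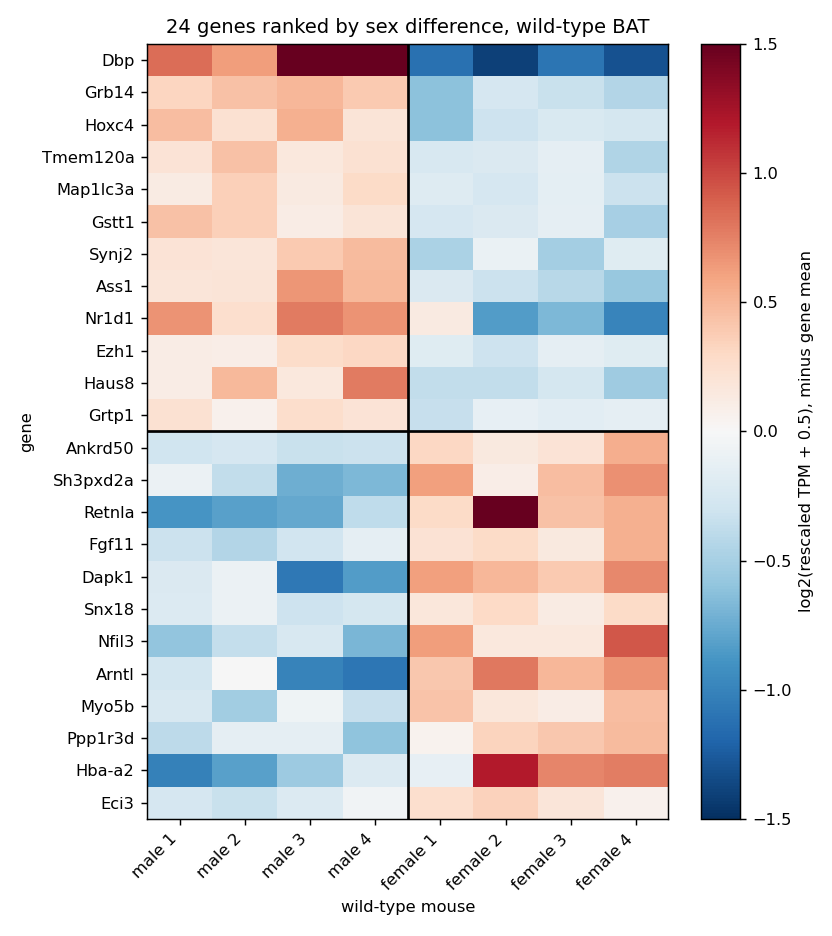
Values of the 24 genes named by rank (rows) in the 8 WT mice (columns), as log2(rescaled TPM + 0.5) minus the mean of the gene over the 8 mice. Colours end at -1.5 and 1.5. The 12 upper genes are red in the males and the 12 lower genes red in the females, since genes were named by their sex difference in these same mice.

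No listed gene that reads or makes sex steroids was called in WT mice. Of the 46 autosomal genes in the list of sex steroid receptors and steroid metabolism 21 were tested, 6 higher in males and 15 in females. An unadjusted p under 0.05 in limma was met by 2 of them, beside 5.79% of all autosomal genes. *Esr1*, the estrogen receptor alpha, was at 2.76, 2.38, 1.13 and 1.73 TPM in males and 3.16, 2.96, 3.51 and 3.28 TPM in females. The sexes did not overlap, and the difference was -0.63 (SE 0.21, adjusted p = 0.73 in limma). In KO mice *Esr1* was called at -1.19 (adjusted p = 0.0406 in limma), also without overlap. *Fkbp4*, a cochaperone of steroid receptors, was at 35.6 to 41.7 TPM in males and 40.8 to 47.5 TPM in females (-0.23, unadjusted p = 0.0254 in limma).

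*Gdf15*, the stress cytokine that the floxed allele targets, was low in both sexes and under the minimum for the fit. It was at 0.418, 0.614, 1.55 and 3.44 TPM in WT males and at 0.0563, 0.353, 0.163 and 0.321 TPM in WT females. Every male was above every female, with a log2 difference of 1.25 and p = 0.0286 in a two-sided exact permutation test, the smallest p that 4 against 4 mice can give. Without 1 female library the exact p was 0.0857 to 0.114.

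The thermogenic program showed no called difference. Of 29 thermogenic genes tested, 13 were higher in males and 16 in females, where 49.3% and 50.7% of all autosomal genes were, 1 had an unadjusted p under 0.05 and the median log2 difference was -0.03, beside -0.003 over all autosomal genes. *Ucp1* was at 3500, 3530, 4380 and 2980 TPM in males and 2840, 3020, 3120 and 2880 TPM in females. The ranges overlapped at their edges, and the difference was 0.27 (SE 0.13, adjusted p = 0.841 in limma). *Lhx8*, a transcription factor that marks brown adipocytes, differed by 0.61 and the secreted factor *Nrg4* by 0.32, both with overlap and neither past the adjusted threshold. *Lhx8* was close to the minimum, with means of 1.73 TPM in males and 0.96 TPM in females. In KO mice *Lhx8* differed by -0.57, of the opposite sign. *Adrb3*, the beta-3 adrenergic receptor, was at 121 to 203 TPM in males and 129 to 167 TPM in females (-0.05).

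Genes of adrenergic receptors and cAMP lay more often on the female side. Among the 31 tested, receptors included, 22 were higher in females, with a median of -0.18. An unadjusted p under 0.05 in limma was met by 8 of them, 7 higher in females, beside 5.79% of all autosomal genes. *Pde4d*, a phosphodiesterase that degrades cAMP, was at 14.3, 15.7, 16.7 and 17.8 TPM in males and 31.6, 21.3, 20.7 and 30 TPM in females. No male reached a female value, and the difference was -0.64 (SE 0.16, adjusted p = 0.612 in limma). *Pde4d* was called in KO mice, at -0.56 (adjusted p = 0.0424 in limma). *Rgs2*, which shortens G protein signals, was at 55.3, 46.6, 17.9 and 44.1 TPM in males and 79.6, 55.4, 87.9 and 67.5 TPM in females (-0.91, SE 0.33). In KO mice the median of the list was 0.01.

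Lipogenesis genes lay more often on the female side. Of 25 lipogenesis genes 22 were higher in females, with a median of -0.31, 3 of them at an unadjusted p under 0.05, and 0 were called. The summed level of the list was 6380, 5320, 12200 and 11400 TPM in males and 10500, 13200, 7530 and 12200 TPM in females, so the sexes overlapped. *Fads1*, a fatty acid desaturase, was at 2.54 to 3.46 TPM in males and 3.70 to 5.59 TPM in females (-0.56, SE 0.15), and *Acacb*, an acetyl-CoA carboxylase, at 106 to 127 and 129 to 163 TPM (-0.31, SE 0.11). Both were without overlap. In KO mice the median of the list was 0.61, of the opposite sign, while *Fads1* was called lower in males there (-0.51, adjusted p = 0.049 in limma). In WT mice the median was 0.09 without the 3 libraries rich in muscle RNA described below.

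Genes of lipid storage and uptake were more often higher in males. In lipolysis and lipid droplets 15 of 21 genes were higher in males (median 0.09), in triglyceride synthesis 12 of 18 (0.08) and in fatty acid uptake 16 of 23 (0.07). These medians were small, and among the alternative settings they fell as low as -0.015, -0.001 and -0.038. *Plin5*, which couples lipid droplets to mitochondria, was at 140, 137, 148 and 139 TPM in males and 112, 98.8, 127 and 89.6 TPM in females (0.41, SE 0.11). *Fabp3*, a fatty acid carrier, was at 1610, 1600, 1400 and 1330 TPM in males and 1040, 1030, 1280 and 794 TPM in females (0.54, SE 0.15). The sexes did not overlap for either gene, and female replicate 4 was lowest in both. In KO mice *Fabp3* overlapped between the sexes, with a difference of -0.08 (adjusted p = 0.775 in limma), and that of *Plin5* was 0.47 (0.0856). *Dgat2*, which makes triglyceride, differed by 0.29 and *G0s2*, the inhibitor of adipose triglyceride lipase, by -0.58, both with overlap. None of these passed the adjusted threshold.

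Nuclear genes of the respiratory chain and of cytosolic ribosomes lay on the male side with small differences. Of 75 respiratory chain genes 69 were higher in males (median 0.13), and of 75 ribosomal protein genes 74 were (median 0.18). In both lists 0 genes had an unadjusted p under 0.05. Female replicate 4 had the lowest sum of each, 41900 TPM beside 52100 to 64700 TPM in the other 7 mice for the respiratory chain, and 11600 beside 14700 to 20700 TPM for ribosomal proteins. Without that library the WT medians were 0.02 and 0.06. In KO mice the medians had the opposite sign, -0.20 and -0.43. *Idh2*, a mitochondrial isocitrate dehydrogenase, was at 360, 365, 350 and 360 TPM in males and 286, 263, 319 and 249 TPM in females (0.37, SE 0.095). *Bckdk*, the kinase that inhibits branched-chain amino acid oxidation, was at 71.3 to 78.7 TPM in males and 61.0 to 65.5 TPM in females (0.28, SE 0.071), and it was called in KO mice at 0.34 (adjusted p = 0.0424 in limma). Neither gene overlapped between the sexes in either genotype.

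Collagens leaned to the female side, while the wider list of matrix remodelling and fibrosis was mixed. Its 51 tested genes were higher in males in 22 cases and in females in 29, with a median of -0.045. Of 19 collagens 16 were higher in females, with a median of -0.37, and 6 had an unadjusted p under 0.05, 5 of them higher in females. The summed collagen level overlapped, at 262 to 350 TPM in males and 302 to 435 TPM in females. *Col5a2* and *Col6a1* differed by -0.46 and -0.41. Among 16 fibroblast and adipose progenitor markers, 10 were higher in females and 6 had an unadjusted p under 0.05, all 6 higher in females. *Mfap5*, a microfibril protein, was at 2.51, 2.11, 2.57 and 2.63 TPM in males and 3.36, 6.16, 4.62 and 4.02 TPM in females (-0.75, SE 0.17), and *Lum*, the proteoglycan lumican, at 3 to 4.54 and 4.78 to 7.15 TPM (-0.54, SE 0.16). Both were without overlap. None was called. In KO mice the collagen median was 0.17 and *Mfap5* differed by 0.43, of the opposite sign, with overlap (adjusted p = 0.339 in limma). In whole tissue a difference in the number of cells of a type and a difference in RNA per cell cannot be told apart.

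Growth hormone and IGF genes were higher in females in 17 of 20 cases (median -0.23 in WT and -0.31 in KO mice). *Igfbp6*, an IGF-binding protein, was at 2.59 to 3.81 TPM in males and 4.41 to 9.19 TPM in females (-0.78, SE 0.21). Of secreted factors, *Rarres2* (chemerin) differed by 0.73 in WT and was called in KO mice at 0.83 (adjusted p = 0.0498 in limma). *Lep*, which encodes leptin, ranged from 20.7 to 87.3 TPM in males and from 5.8 to 76.2 TPM in females, so the WT sexes overlapped widely (0.68, SE 0.76), while in KO mice the difference was 3.63 (adjusted p = 0.0502 in limma). *Retn*, which encodes resistin, was at 34.6, 32.6, 5.29 and 31.5 TPM in males and 39.7, 62.1, 36.9 and 49.8 TPM in females (-1.12, SE 0.55), and was called in KO mice at -2.49 (adjusted p = 0.0208 in limma).

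**Figure D4:**
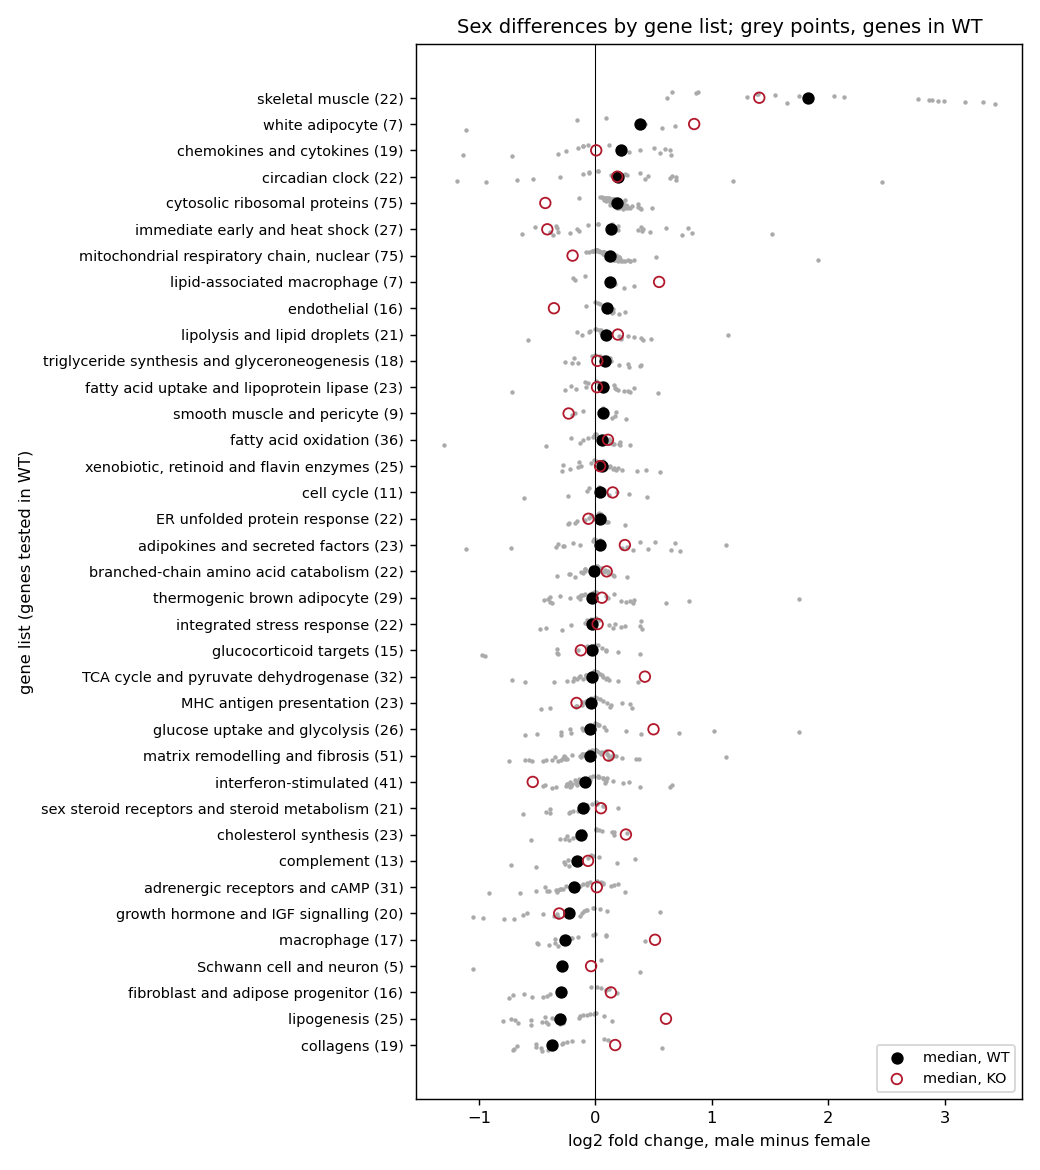
Log2 fold change, male minus female, of each gene list with at least 5 tested genes. Grey points are the genes in WT mice, filled points their median and open points the median in KO mice, and the number of genes tested in WT is in brackets. The WT medians lie between -0.37 for collagens and 1.83 for skeletal muscle, and several lists, among them lipogenesis and ribosomal proteins, have medians of opposite sign in the 2 genotypes.

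Genes of other cell types lay apart by sex or in single libraries. All 4 globin genes tested were higher in females without overlap, as were 2.03% of all autosomal genes. *Hba-a2* was at 573, 658, 792 and 998 TPM in males and 1060, 2640, 1920 and 1970 TPM in females (-1.29, SE 0.28, adjusted p = 0.506 in limma), and *Hba-a1*, *Hbb-bs* and *Hbb-bt* differed by -1.24, -1.27 and -1.38. Female replicate 1 lay just above the males and the other 3 females far above. With the prefix as a covariate the differences were near 0, at -0.04 for *Hba-a2*, -0.01 for *Hba-a1*, 0.06 for *Hbb-bs* and 0.07 for *Hbb-bt*. The globin genes of the list that are paralogs of near-identical sequence may share reads, which were split by the authors' software.

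Skeletal muscle genes differed most in size and least reliably. All 22 tested were higher in males, with a median of 1.83, and 0 had an unadjusted p under 0.05. Their summed level was 2500, 2760, 484 and 116 TPM in males and 82.6, 2350, 218 and 93.2 TPM in females, so male replicates 1 and 2 and female replicate 2 were high. *Ckm*, muscle creatine kinase, ranged from 2.63 to 365 TPM in males and from 0.0631 to 249 TPM in females. Leaving out these 3 libraries kept male replicates 3 and 4, both with prefix 9, and female replicates 1, 3 and 4. The kept males had the highest *Dbp* (29.5 and 29.4 TPM) and the lowest *Arntl* (1.74 and 1.61 TPM) of the WT males. In that fit 12 autosomal genes were called, of which 3 were protein-coding: *Dbp* (2.91, adjusted p = 0.00144 in limma), *Arntl* (-1.58, 0.0344) and *Sh3pxd2a* (-1.29, 0.0374). The other 9 were other than protein-coding and included *Mir719*.

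Immune markers were low or mixed. Of 17 macrophage markers 14 were higher in females, with a median of -0.26 in WT and 0.51 in KO mice, but the summed levels overlapped, at 77.7 to 119 TPM in males and 88.9 to 166 TPM in females. *Csf1r*, the macrophage growth factor receptor, differed by -0.32. Mast cell genes were close to the minimum: *Mcpt4*, a mast cell protease, was at 0.729, 0.582, 0.359 and 0.891 TPM in males and 1.29, 2.13, 1.52 and 1.37 TPM in females (-0.87, SE 0.23), without overlap, and *Cpa3* differed by -0.81 with overlap. *Mcpt4* and *Cpa3* had male means of 0.64 and 0.672 TPM, so both passed the minimum only through the females. The part of immune cells in the differences of other genes was not tested.

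**Figure D5:**
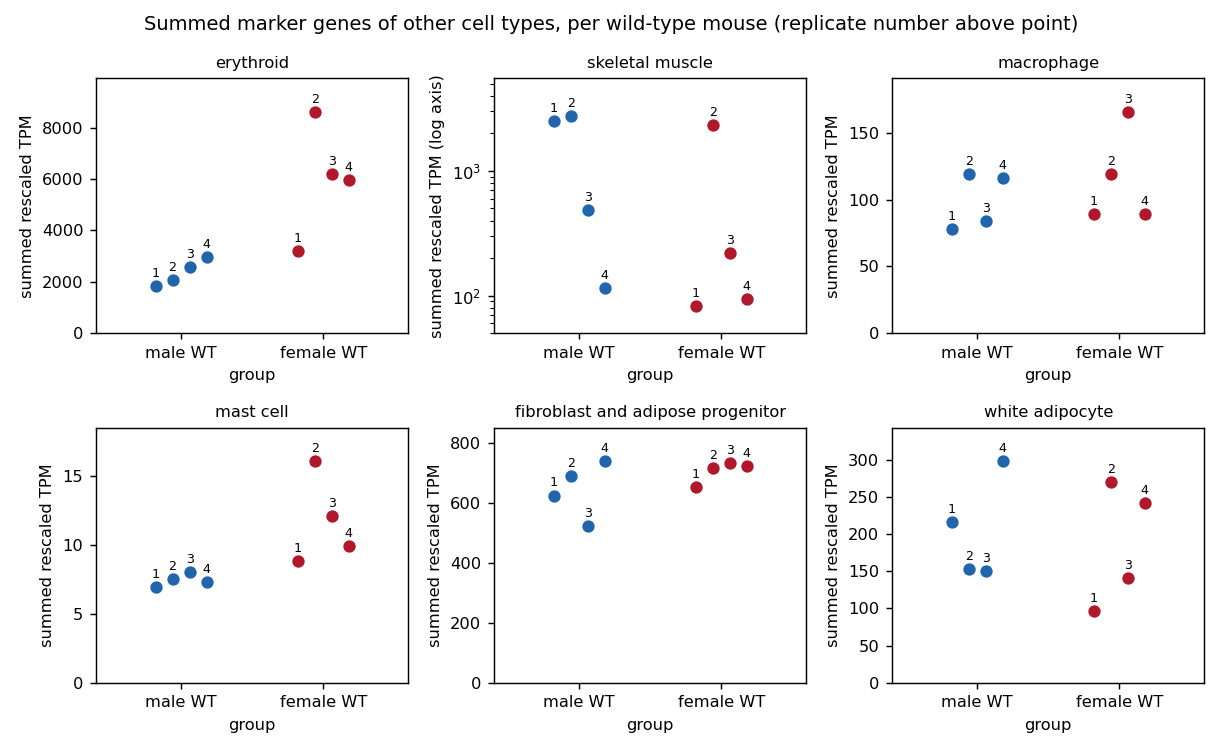
Summed rescaled TPM of the marker genes of 6 other cell types in each WT mouse, with the replicate number above the point (log axis for skeletal muscle, linear axes from 0 otherwise). The globin-led erythroid sum was 1820 to 2980 TPM in males and 3190 to 8630 TPM in females, and the muscle sum was above 1000 TPM in 3 mice.

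KO mice gave a second set of 4 males and 4 females that share no library with the WT comparison. There 532 of 11891 autosomal genes (4.47%) were called, 301 higher in males (2.53%) and 231 in females (1.94%), and 29.5% had an unadjusted p under 0.05. That count rested on single libraries. It was 19, 20 and 21 without male KO replicates 2, 3 and 4, 45 and 26 without female KO replicates 1 and 4, and 1170 and 1326 without female KO replicates 2 and 3. Over the 11413 autosomal genes tested in both genotypes, 51% had the same sign. Of the 665 with an unadjusted p under 0.05 in WT mice, 428 (64.4%) had the same sign in KO mice, and of the 516 called in KO mice, 376 (72.9%) had the same sign in WT mice. No autosomal gene was called in both (0 genes). The difference of the sex effect between genotypes was also put to a test, as an interaction term in a fit of the 16 libraries. There 0 of 12215 genes passed the adjusted threshold in limma, while 2318 were at an unadjusted p under 0.05. That is well above the share of 0.05 that no difference would give. The lack of calls therefore does not show that the sex difference was alike in both genotypes.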

How the data were processed

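BAT of 16 mice was measured by mRNA sequencing. The authors quantified single-end reads with kallisto 0.46.2 (GRCm39, from the submitters' notes) and deposited TPM per transcript, scaled within each library. The annotation is not given in the sources used here. Of 137438 transcripts, 135107 were matched by unversioned identifier to GENCODE vM21 and summed to 49119 genes. Gene coordinates are therefore not given, and sequences come from RefSeq (GRCm38.p6).

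TPM were divided by median-of-ratios factors over the 8 WT libraries and tested as log2(TPM + 0.5) with limma 3.58.1 (R 4.3.3; lmFit, eBayes with trend), for genes with a mean of at least 1 TPM on any chromosome, with Benjamini-Hochberg adjustment over all of them and a threshold of 0.05. Fold changes on this scale understate low genes. The authors' DESeq2 test needs counts and was not run. KO mice were fitted alike, and *Gdf15* was tested by exact permutation. Samples were grouped by their labels.

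Members, gene lists and tests were chosen with earlier results of these data known. Of 45 lists, 29 cover pathways and 16 cell types. Genes are named by rank, as called members of a list or its 2 members of smallest p, or because they concern the model (*Gdf15*, *Ucp1*, *Esr1*, *Lep*, *Adrb3*, sex-linked genes). The rank took up to 12 protein-coding genes per direction. Called genes without overlap of the sexes came first, and the places left were filled by smallest p, with no condition on overlap. The other clock genes, globins, *Mir719*, *Gm49336* and *Neat1* were named after their values were seen. Not every list is described, and some genes are not reported here.

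Alternatives were TPM as deposited, scaling on nuclear protein-coding genes or by TMM, pseudocounts of 1 and 0.1, no minimum, a minimum of 5 TPM, no trend, a robust fit, library weights, adjustment over autosomal genes, a replicate block, all 16 libraries with and without the name prefix, and leaving out each library. One more was chosen after seeing the data: leaving out the 3 libraries with a summed skeletal muscle level above 1000 TPM.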

Additional observations from a re-analysis of the deposited data

Results flagged for a closer look

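In 140 pairs of gene and sex, a single mouse was looked for whose value stood apart from the other 3 by Dixon's test at the 95% level. Chance alone flags about 1 in 20 groups tested. Pairs whose values spanned less than 0.5 on the log2 scale were not tested but are counted in the 140. Such a mouse was found in 2 pairs (1.43%), a share that cannot be set against 1 in 20 for that reason. *Retn* was at 5.29 TPM in male replicate 3, beside 31.5 to 34.6 TPM in the other males. *Mir719* was at 0.75 TPM in male replicate 1 and listed at 0 in the other males.

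Transcripts that matched no gene, which the comparisons leave out, took 17.7% of the TPM in female replicate 4 and 0.33 to 0.47% in the other 15 libraries. The cause was not tested.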

How the results depend on the processing

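The 3 autosomal calls became 6 with library weights, 5 with all 16 libraries in one fit, 1 with the name prefix added to it (*Mmd2*, -2.59), 12 without the 3 libraries rich in muscle RNA (chosen after seeing the data), and 0 with the adjustment over autosomal genes alone, where 678 genes had an unadjusted p under 0.05 in limma. With a replicate block there were 0 calls and 575 genes at an unadjusted p under 0.05 in limma. Replicate numbers do not pair the mice (correlations of deviations between -0.082 and 0.152). Leaving out 1 library gave 0 to 5 calls in WT and 19 to 1326 in KO mice, and TPM as deposited gave 1092 in KO mice. The *Gdf15* difference was 0.84 to 1.56 without 1 library. The 5 calls of the 16-library fit (*Ankrd50*, *Fgf11*, *Hoxc4*, *Retnla*, *Snx18*) share 0 genes with the 3.

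Of 68 named genes, 59 kept their sign throughout. With the prefix it turned for *Nr1d1* (-0.45), *Nr1d2* (-0.25), *Per2* (-0.20), *Hbb-bs* (0.055), *Hbb-bt* (0.073), *Adrb3* (0.073) and *Gm49336* (-0.05). *Adrb3* also turned with TPM as deposited (0.012) and without the muscle-rich libraries (0.009), and *Per1* (-0.005) and *Gm49336* (-0.023) with scaling on protein-coding genes. Without 1 library *Adrb3* ranged from -0.211 to 0.032, *Per1* from -0.339 to 0.581, *Per2* from -0.033 to 0.778, *Lep* from -0.061 to 1.144 and *Gm49336* from -0.111 to 0.088. The medians of 14 of 45 lists kept their sign throughout. The causes were not tested. Depth is unknown, and 4 mice per sex on separate prefixes limit every comparison.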
